A study of Mus musculus with 10 samples.

Results

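The BCL2 family decides whether a cell keeps its mitochondria intact or dies by apoptosis, and 10 of its genes are described here in mouse B cell lymphoma and in normal germinal centre B cells. They were taken by name from the 46316 genes of the count table: 7 genes of survival proteins (Bcl2, Bcl2l1, Bcl2l2, Mcl1, Bcl2a1a, Bcl2a1b and Bcl2a1d), 1 gene of a pore-forming effector (Bak1) and 2 genes of BH3-only death proteins (Bcl2l11 and Bmf). All 10 had enough counts to be tested, among 17718 genes that did. RNA was read from reporter-positive B cells sorted from the spleens of 10 C57BL/6 mice, 1 library per mouse.

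The 3 groups share a Cre made from the Cγ1 locus (Cg1Cre/+), which switches on as B cells enter the germinal centre reaction. The pBIC mice (3 libraries) carry floxed p53 and Blimp1 alleles on both chromosomes and the IKK2castopF/stopF allele, from which Cre turns on an active form of the NF-κB kinase IKK2, and they develop a lymphoma like the activated B cell type of diffuse large B cell lymphoma. The pBIC10 mice (3 libraries) carry the same alleles and a floxed IL-10 gene (IL-10F/F). The YC mice (4 libraries) carry only the reporter (YFPstopF/+) beside the Cre, and their germinal centre B cells were taken 10 days after a second immunisation with sheep red blood cells. Lymphoma cells were sorted as B220+GFP+ from moribund mice, and YC cells as B220+YFP+. Some labels of the YC libraries repeat the lymphoma wording, and the series design was followed for them. Ages are not given, and pBIC10 and YC each held 1 male. The study compared IL-10-deficient with IL-10-proficient lymphoma, and each with normal cells.

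Survival members of the family hold the effectors BAX and BAK in check at the outer mitochondrial membrane and bind the BH3-only proteins, which are made or released under stress and tip the balance towards pore formation. Open pores let cytochrome c out, and caspases are then switched on. In germinal centres B cells die in large numbers unless selected. MCL1 is needed for their survival, BCL2 is held low there by the repressor BCL6, and BIM, the product of Bcl2l11, is a main killer of unselected cells. The Bcl2a1 genes, which encode A1 (BFL-1 in humans), are known targets of NF-κB.

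The Bcl2a1 genes had the largest differences of the 10 in both comparisons with pBIC10, and they are nearly identical copies, so their sequences come first. The first 120 of 516 coding bases are shown from GENCODE M21 transcripts (build GRCm38) because 7 of the 12 positions at which the 3 coding sequences differ lie in them. Capitals mark the bases that differ among the 3 genes.
Bcl2a1a: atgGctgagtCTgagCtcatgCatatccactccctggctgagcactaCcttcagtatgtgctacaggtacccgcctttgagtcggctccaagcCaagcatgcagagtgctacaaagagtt
Bcl2a1b: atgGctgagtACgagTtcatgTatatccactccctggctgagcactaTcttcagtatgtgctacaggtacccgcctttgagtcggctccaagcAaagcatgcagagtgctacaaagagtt
Bcl2a1d: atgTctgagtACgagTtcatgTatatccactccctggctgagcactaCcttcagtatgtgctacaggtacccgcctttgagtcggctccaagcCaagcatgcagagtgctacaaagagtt
Over all 516 coding bases Bcl2a1a and Bcl2a1b were 97.87% identical, Bcl2a1a and Bcl2a1d 98.64%, and Bcl2a1b and Bcl2a1d 98.84%. The likeness reaches past the coding part. The aligned 100-base stretch upstream of each gene, from RefSeq promoters of GRCm38.p6, differed at 2 positions (capitals). It spans chr9:88956820-88956919 on the plus strand, chr9:89199129-89199228 on the plus strand and chr9:88731851-88731950 on the minus strand. It ends at the base just before the annotated start of Bcl2a1a and Bcl2a1d, and 45 bases before that of Bcl2a1b.
Bcl2a1a upstream: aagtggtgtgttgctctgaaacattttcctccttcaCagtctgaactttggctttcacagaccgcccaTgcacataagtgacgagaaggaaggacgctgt
Bcl2a1b upstream: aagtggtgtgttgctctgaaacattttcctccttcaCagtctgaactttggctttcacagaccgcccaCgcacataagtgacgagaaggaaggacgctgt
Bcl2a1d upstream: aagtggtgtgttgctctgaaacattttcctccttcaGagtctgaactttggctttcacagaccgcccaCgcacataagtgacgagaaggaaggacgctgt
Reads were 50 bases long. Of all 50-base windows of the annotated transcripts, 31.0% in Bcl2a1a, 20.8% in Bcl2a1b and 20.5% in Bcl2a1d occur in no other gene, against all of them in Bcl2l1, Mcl1 and Bmf and 99.9% in Bcl2l11. How the authors treated reads that map to several places is not given in the sources used here, so the split of counts among the Bcl2a1 copies is uncertain, and their sum is given beside each. The annotated gene Gm29094 overlaps 49.1% of the exon bases of Bcl2a1b on the same strand and shares windows with all 3 copies. Bak1 had 82.9% unique windows, the rest shared with Ggnbp1 on the opposite strand. Bcl2l2 had 87.9% and shared the rest with the read-through gene Gm20521. Bcl2 had 94.8% and shared most of the rest with D630008O14Rik on the opposite strand. The count table holds no gene named Gm29094 or D630008O14Rik. Whether counting used the strand is not given either.

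**Figure D1:**
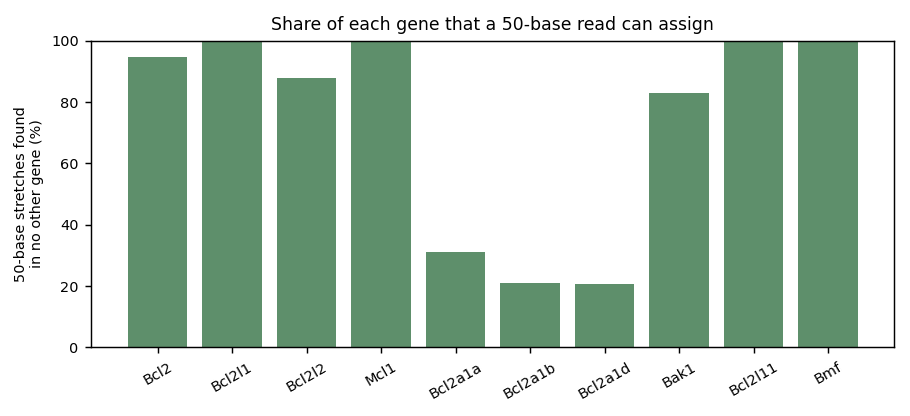
Share of the 50-base windows of each gene's annotated transcripts that occur in no other annotated gene (vertical axis, percent), for the 10 genes. The bars of Bcl2a1a, Bcl2a1b and Bcl2a1d end between 20.5% and 31.0%, and those of the other members at 82.9% or above.

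Some facts of the libraries touch every result. Totals ran from 12.6 to 19.1 M counts, and 3 counts, the most that a count of 0 allows, equal 0.154 to 0.246 counts per M (CPM, scaled by TMM to the composition of each library). The pBIC and YC libraries were taken by the authors from an earlier series and the pBIC10 libraries belong to this one, so the series and the IL-10 allele cannot be told apart in either comparison with pBIC10. One immunoglobulin variable segment led in all 3 pBIC10 libraries (Ighv7-3, 67.4 to 70.5% of heavy chain variable counts) and another in all 3 pBIC libraries (Ighv8-11, 51.6 to 59.1%), while a different one led in each YC library at 3.73 to 10.9%. Whether the libraries of a lymphoma group come from related cells was not tested, and p-values measure the spread between these libraries. Of the genes the alleles act on, Trp53 stood at 36.6 to 49.7 CPM in pBIC10 and 18.3 to 53.3 in pBIC against 176 to 198 in YC, and Il10 stood at 1.99 to 4.77 in pBIC10, 6.84 to 19.4 in pBIC and 4.23 to 9.98 in YC. Ikbkb, the gene of IKK2, stood at 335.3 to 422 CPM in pBIC10, 223 to 334.5 in pBIC and 126 to 166 in YC. Prdm1, the gene of Blimp1, floxed in both lymphomas, stood at 0.351 to 1.59 CPM in pBIC10, 5.63 to 16.3 in pBIC and 16.8 to 39.6 in YC, and was lower in pBIC10 than in pBIC, -3.50 ± 0.55 (adjusted p = 5.63e-04). The B cell markers (6 genes) were all detected in the 10 libraries, with none at 0, and summed to 6106 to 7603 CPM in YC, 1301 to 2808 in pBIC and 2297 to 3787 in pBIC10. Against YC, 6 of the 6 were called lower in pBIC and 5 in pBIC10, and 3 were called higher in pBIC10 than in pBIC. The 7 germinal centre markers summed to 1393 to 2163 CPM in YC, 329 to 805 in pBIC and 502 to 551 in pBIC10. All 7 were called lower in each lymphoma than in YC. Mki67 made up most of each lymphoma sum, at 267 to 737 CPM in pBIC and 448 to 502 in pBIC10. Against YC Mki67 fell by less than the list's median, which the sums do not show. Its log2 fold changes were -1.18 ± 0.30 in pBIC and -1.13 ± 0.30 in pBIC10, beside medians of -3.91 and -3.64. The 5 plasma cell markers summed to 1201 to 2692 CPM in YC, 333 to 549.5 in pBIC and 227 to 258 in pBIC10. Against YC, 5 were called lower in pBIC and 4 in pBIC10, and 1 was called lower in pBIC10 than in pBIC. Irf4, at 188 to 207 CPM, made up most of each pBIC10 sum. Jchain made up most of each YC sum, at 666 to 1897 CPM, and stood at 29.4 to 337 in pBIC and 3.22 to 9.07 in pBIC10. Erythroid markers summed to 184 to 543 CPM in YC, 32.2 to 662 in pBIC and 630.2 to 1628 in pBIC10. The library pBIC replicate 3 stood apart from the other 2 of its group in Bcl2, Bcl2l11 and the Bcl2a1 genes. The fitted differences of these single genes that involve pBIC are given with and without it. The summed Bcl2a1 level and the levels per kb are given only with it.

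Between the lymphomas, 6 of the 10 members passed the test (adjusted p under 0.05, edgeR), where 30.7% of all genes tested were called. Of these, 1 was higher in pBIC10 (beside 15.6% of all genes) and 5 lower (beside 15.1%). In pBIC against YC 8 members were called, beside 54.1% of all genes, with 3 higher (beside 26.4%) and 5 lower (beside 27.7%). In pBIC10 against YC 8 were called, beside 51.7% of all genes, again with 3 higher (beside 24.8%) and 5 lower (beside 26.9%). Groups were fully separated, library by library, in 6, 8 and 8 members in the same order of comparisons, beside 41.8%, 54.2% and 61% of all genes. The members' counts are to be read against those shares of all genes. The members' median log2 fold change was -0.68 between the lymphomas, -0.81 for pBIC and -0.76 for pBIC10 against YC, while the medians over all genes were -0.01, 0.02 and 0.01. The comparisons with YC share the 4 YC libraries.

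**Figure D2:**
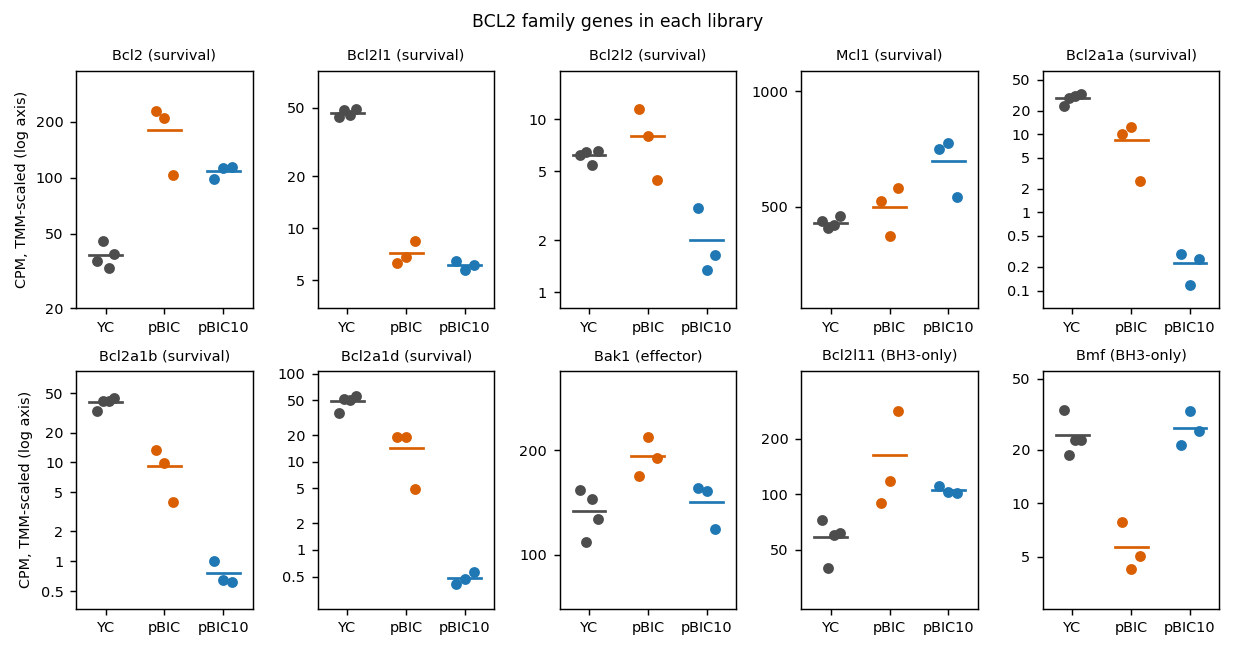
Level of each member in every library (vertical axis, TMM-scaled CPM on a log axis) for YC, pBIC and pBIC10, with 1 point per library and a line at the group mean. The 3 Bcl2a1 genes step down from YC to pBIC to pBIC10, Bcl2l1 is low in both lymphomas, Bcl2 is high in both, and Bmf is low in pBIC alone.

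Bcl2a1a counted 23.0, 28.9, 30.4 and 32.7 CPM across YC, 10.1, 12.4 and 2.52 CPM across pBIC and 0.295, 0.117 and 0.256 CPM across pBIC10. No library of a group reached the range of another. For Bcl2a1b the values were 32.8, 41.5, 41.7 and 45.1 CPM over the YC libraries, 13.5, 9.89 and 4.02 CPM over pBIC and 1.0, 0.644 and 0.615 CPM over pBIC10. The YC libraries held 35.8, 52.3, 50.1 and 56.2 CPM of Bcl2a1d, those of pBIC held 19.0, 19.3 and 4.87 CPM, and those of pBIC10 held 0.413, 0.469 and 0.564 CPM. All 3 genes thus took the same order of groups, and pBIC replicate 3 was the lowest of its group in each. The pBIC10 values rest on few counts, 5, 2 and 5 for Bcl2a1a, 17, 11 and 12 for Bcl2a1b and 7, 8 and 11 for Bcl2a1d.

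Bcl2a1 levels differed between the lymphomas by log2 fold changes of -5.17 ± 0.60 (adjusted p = 4.87e-05) for Bcl2a1a, -3.59 ± 0.42 (adjusted p = 4.32e-05) for Bcl2a1b and -4.87 ± 0.51 (adjusted p = 2.93e-05) for Bcl2a1d. Without pBIC replicate 3 the differences were larger, -5.59 ± 0.34 (adjusted p = 6.17e-07), -3.94 ± 0.29 (adjusted p = 1.98e-06) and -5.28 ± 0.28 (adjusted p = 3.13e-07) in the same order. In pBIC against YC the changes were -1.79 ± 0.42 (adjusted p = 0.00325), -2.14 ± 0.34 (adjusted p = 2.06e-04) and -1.76 ± 0.38 (adjusted p = 0.00214). Without pBIC replicate 3 the latter 3 were -1.36 ± 0.26 (adjusted p = 0.00108), -1.78 ± 0.25 (adjusted p = 1.50e-04) and -1.34 ± 0.22 (adjusted p = 4.70e-04). In pBIC10 against YC they were -6.96 ± 0.60 (adjusted p = 2.90e-06), -5.73 ± 0.43 (adjusted p = 8.24e-07) and -6.63 ± 0.53 (adjusted p = 1.82e-06). The sum of the family, with the copy Bcl2a1c, does not depend on how reads are split among those copies. Reads dropped for mapping to several places, or assigned to Gm29094 under another name, would be missing from it. It stood at 93.4, 125, 125 and 137 CPM in YC, fell to 43.4, 42.9 and 11.9 CPM in pBIC and stood at only 1.71, 1.23 and 1.49 CPM in pBIC10. The summed level was 22.1-fold lower in pBIC10 than in pBIC, -4.46 ± 0.46 (adjusted p = 3.04e-05) on the log2 scale, and 3.67-fold lower in pBIC than in YC, -1.87 ± 0.37 (adjusted p = 0.00116). It was 80.9-fold lower in pBIC10 than in YC, -6.34 ± 0.48 (adjusted p = 1.73e-06). The calls of the 3 single copies held under every alternative that gave them a value, and the sum was fitted once per comparison.

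The division of counts among the 3 copies was similar across the YC libraries. Bcl2a1a took 23.5 to 25.1% of the counts of the 3, Bcl2a1b 33.7 to 35.8% and Bcl2a1d 39.1 to 42.6%. In pBIC the ranges were 22.1 to 29.8%, 23.8 to 35.2% and 42.7 to 46.4%. In pBIC10 the 3 genes together had 21 to 29 counts a library, and the share of Bcl2a1b in replicate 1, 58.6%, had an exact 95% binomial interval of 38.9 to 76.5%, which covers counting error only. At this depth the shares of the copies in pBIC10 say little. Bcl2a1c had 1 count over the 3 pBIC10 libraries, 49 over pBIC and 130 over YC, and the ratio of pBIC to pBIC10 was 47.7 with a counting interval of 8.17 to 1921.

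Marker lists of other blood cells also differed between the groups, in part in the order of the Bcl2a1 level. The 8 myeloid markers, which include Lyz2, Csf1r and Itgam, summed to 99.2 to 163 CPM in YC, to 39.3, 61.0 and 9.42 CPM in pBIC and to 13.2 to 14 CPM in pBIC10. Of these markers 1 was called lower in pBIC10 than in pBIC, 5 lower in pBIC than in YC and 7 lower in pBIC10 than in YC. The 8 T cell markers summed to 292 to 461 CPM in YC, 47.0 to 84.5 CPM in pBIC, highest in replicate 3, and 40.7 to 64.6 CPM in pBIC10. Between the lymphomas 7 of them were called lower and 1, Lck, higher in pBIC10. Lck alone stood at 36.5, 37.6 and 57.7 CPM in pBIC10, most of each T cell sum there, and at 25.7, 9.67 and 7.66 CPM in pBIC. Each of the other 7 was lower in every pBIC10 library than in every pBIC library, which the sums do not show. The 4 NK cell markers summed to 9.69 to 34.6 CPM in YC, to 8.63, 7.91 and 1.61 CPM in pBIC and to 0.718 to 1.47 CPM in pBIC10, the order of groups seen for Bcl2a1. Among them Prf1 was called lower in pBIC10 than in pBIC, -3.77 ± 0.71 (adjusted p = 0.00175), and from 0 to 2 of the 4 were at 0 in each lymphoma library. The 6 erythroid markers ran the other way, with every pBIC10 library above every YC library. No T cell marker was at 0 counts in any library, and 1 myeloid marker was at 0 in 1 pBIC10 library. The library pBIC replicate 3 had a smaller myeloid sum than every pBIC10 library, 9.42 CPM, and a summed Bcl2a1 level of 11.9 CPM against at most 1.71 CPM in pBIC10. Among the YC libraries, replicate 1 had the highest sum of both marker lists and the lowest Bcl2a1 level. The part of such cells in the differences from YC and between the lymphomas, for the Bcl2a1 genes and for every gene below, was not tested. In bulk samples, fewer cells of a type and less RNA per cell cannot be told apart.

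**Figure D3:**
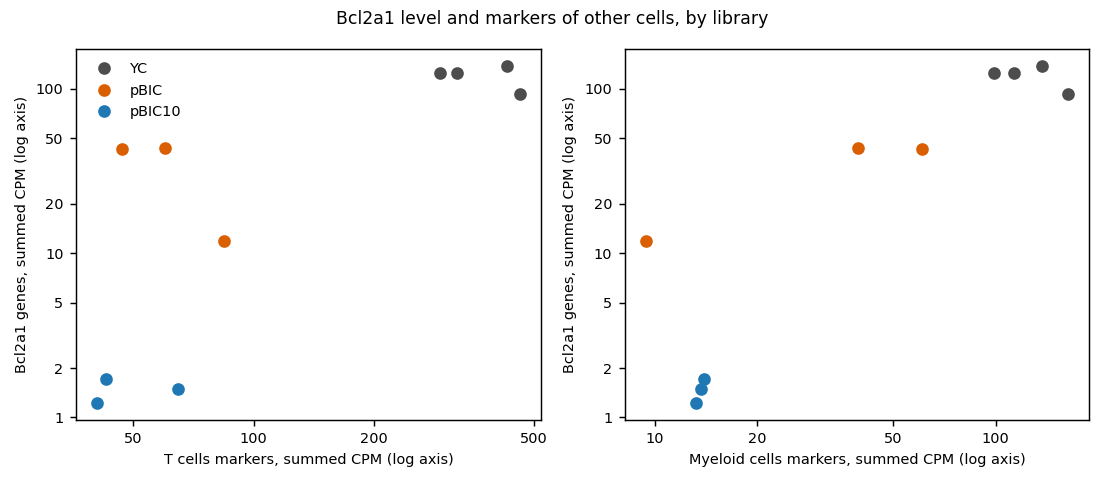
Summed level of the Bcl2a1 genes (vertical axis, CPM, log axis) against the summed level of T cell markers (left) and myeloid markers (right, CPM, log axes), 1 point per library. The pBIC library with the lowest myeloid sum, 9.42 CPM, lies at a Bcl2a1 level of 11.9 CPM, above the 3 pBIC10 libraries at 1.23 to 1.71 CPM. Lck makes up most of each T cell sum in pBIC10.

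Bcl2l1, which encodes BCL-XL, was low in both lymphomas. Bcl2l1 counted 44.0, 48.4, 45.6 and 49.1 CPM across YC, 6.27, 6.78 and 8.46 CPM across pBIC and 6.49, 5.74 and 6.10 CPM across pBIC10. All lymphoma libraries lay far below all YC libraries, and the lymphoma groups overlapped. The log2 fold change was -2.70 ± 0.19 (adjusted p = 6.56e-07) in pBIC against YC and -2.93 ± 0.19 (adjusted p = 4.00e-07) in pBIC10 against YC. Between the lymphomas it was -0.23 ± 0.19 (adjusted p = 0.392) and was not called.

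Bcl2 itself moved the other way. For Bcl2 the values were 35.7, 45.9, 32.9 and 38.8 CPM over the YC libraries, 227, 209 and 103 CPM over pBIC and 98.9, 113 and 114 CPM over pBIC10. Every lymphoma library exceeded every YC library, and pBIC replicate 3 lay within the pBIC10 range. Bcl2 rose by 2.23 ± 0.24 (adjusted p = 1.07e-05) on the log2 scale in pBIC against YC and by 1.5 ± 0.23 (adjusted p = 1.70e-04) in pBIC10 against YC. Without pBIC replicate 3 the first of these was 2.51 ± 0.17 (adjusted p = 8.14e-07). In pBIC10 Bcl2 was lower than in pBIC, -0.73 ± 0.25 (adjusted p = 0.0414). That call was lost in 14 of 21 alternatives, with adjusted p from 0.00138 to 0.145, and without pBIC replicate 3 the difference was -1.0 ± 0.18 (adjusted p = 0.00138). Bcl6, the repressor of Bcl2 in germinal centres, stood at 225 ± 70.8 CPM in YC (SD, n = 4), 6.01 ± 3.03 CPM in pBIC and 4.65 ± 0.990 CPM in pBIC10 (SD, n = 3). It fell in both lymphomas against YC, -5.23 ± 0.38 (adjusted p = 1.02e-06) in pBIC and -5.60 ± 0.39 (adjusted p = 6.76e-07) in pBIC10.

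Set against each other within a library, counts of Bcl2 per count of Bcl2l1 were 0.721 to 0.949 in YC, 12.2 to 36.2 in pBIC and 15.2 to 19.7 in pBIC10. The lymphoma ranges overlapped each other and lay above YC. These ratios hold no correction for gene length and are comparable between libraries only.

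Mcl1 encodes a short-lived survival protein that must be made continuously. The YC libraries held 459, 440.0, 447 and 472 CPM of Mcl1, those of pBIC held 516, 419 and 559.9 CPM, and those of pBIC10 held 707, 734 and 530.3 CPM. The pBIC libraries spanned the YC range, and the pBIC10 libraries all lay above it. Mcl1 was higher in pBIC10 than in YC, 0.53 ± 0.16 (adjusted p = 0.0122), a call that did not survive leaving out pBIC10 replicate 1, 0.48 ± 0.19 (adjusted p = 0.0510), or replicate 2, 0.45 ± 0.18 (adjusted p = 0.0598). The difference was 0.13 ± 0.16 (adjusted p = 0.497) in pBIC against YC and 0.40 ± 0.17 (adjusted p = 0.0898) between the lymphomas, neither of them called. Without pBIC10 replicate 3 the latter was called, 0.55 ± 0.17 (adjusted p = 0.0324).

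Bcl2l2, which encodes BCL-W, was lowest in pBIC10. Bcl2l2 counted 6.23, 6.47, 5.45 and 6.56 CPM across YC, 11.4, 7.97 and 4.44 CPM across pBIC and 3.07, 1.35 and 1.64 CPM across pBIC10. The pBIC10 libraries lay below all others. The log2 fold change was -1.98 ± 0.41 (adjusted p = 0.00278) between the lymphomas and -1.61 ± 0.39 (adjusted p = 0.00383) in pBIC10 against YC, and both calls held under every alternative. In pBIC against YC it was 0.36 ± 0.36 (adjusted p = 0.414), not called, and the pBIC libraries lay on both sides of YC.

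**Figure D4:**
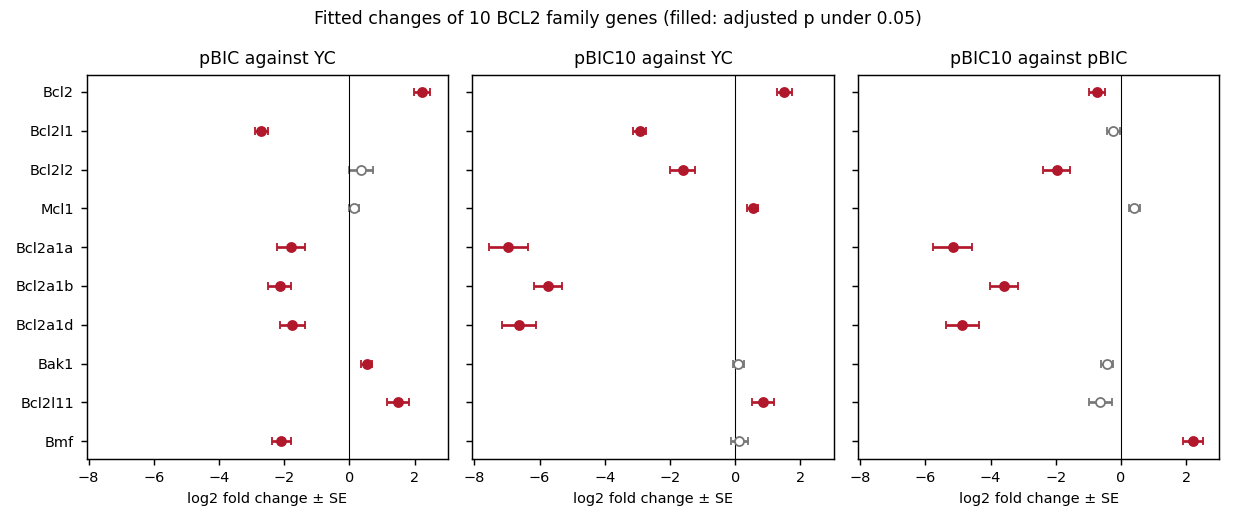
Log2 fold change of each member in the 3 comparisons (horizontal axes), with bars of 1 SE and filled points where the adjusted p is under 0.05. The Bcl2a1 genes lie furthest to the left in both comparisons with pBIC10, and Bmf lies to the right in pBIC10 against pBIC and to the left in pBIC against YC.

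Bak1 encodes BAK, which forms pores in the outer mitochondrial membrane. For Bak1 the values were 153, 108, 145 and 127 CPM over the YC libraries, 169, 218 and 189 CPM over pBIC and 155, 152 and 118 CPM over pBIC10. The pBIC libraries lay above all others. Bak1 rose in pBIC against YC, 0.53 ± 0.17 (adjusted p = 0.0187), but the call was lost without YC replicate 2, 0.41 ± 0.17 (adjusted p = 0.0704), or replicate 4, 0.49 ± 0.20 (adjusted p = 0.0575). The other differences were -0.44 ± 0.18 (adjusted p = 0.0864) in pBIC10 against pBIC and 0.09 ± 0.17 (adjusted p = 0.687) in pBIC10 against YC, neither called. Ggnbp1, which overlaps 25.5% of the exon bases of Bak1 on the opposite strand, stood at 1.39 to 2.68 CPM in pBIC, 7.41 to 11.1 CPM in YC and 10.5 to 22.3 CPM in pBIC10, and was thus lowest in pBIC, where Bak1 was highest. Its part in the Bak1 counts was not tested. Bax, the other main effector gene, was called in none of the 3 comparisons, with log2 fold changes of -0.15 ± 0.22 (adjusted p = 0.636), -0.21 ± 0.21 (adjusted p = 0.415) and -0.36 ± 0.21 (adjusted p = 0.162) between the lymphomas and for pBIC and pBIC10 against YC. Counts of Bak1 per count of Bax were 1.43 to 2.08 in YC, 2.29 to 3.53 in pBIC and 2.21 to 2.38 in pBIC10. Bok, an effector that the survival proteins do not hold, had too few counts to test.

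Bcl2l11 encodes BIM, which binds all survival members of the family. The YC libraries held 72.0, 39.5, 59.8 and 61.7 CPM of Bcl2l11, those of pBIC held 89.9, 118 and 282 CPM, and those of pBIC10 held 111, 103 and 101 CPM. All lymphoma libraries lay above all YC libraries, and pBIC replicate 3 was the highest of all 10. Bcl2l11 rose in pBIC against YC, 1.49 ± 0.33 (adjusted p = 0.00276), and without pBIC replicate 3 the rise was 0.84 ± 0.21 (adjusted p = 0.00628). In pBIC10 against YC it was 0.85 ± 0.33 (adjusted p = 0.0479), a call that was lost in 11 of 21 alternatives, with adjusted p from 0.00231 to 0.122. Between the lymphomas the difference was -0.63 ± 0.36 (adjusted p = 0.202) and was not called. It turned to 0.02 ± 0.23 (adjusted p = 0.952) without pBIC replicate 3, and without pBIC replicate 1 it was called, -0.92 ± 0.32 (adjusted p = 0.0463). Counts of Bcl2l11 per count of Bcl2 were 0.396, 0.564 and 2.73 in the 3 pBIC libraries, 0.890 to 1.12 in pBIC10 and 0.859 to 2.01 in YC. The pBIC libraries thus took both the lowest and the highest ratio of all 10.

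Bmf, a BH3-only gene whose protein is held at the cytoskeleton until stress frees it, was low in pBIC. Bmf counted 33.4, 18.6, 22.6 and 22.6 CPM across YC, 7.83, 4.24 and 5.03 CPM across pBIC and 21.2, 33.0 and 25.3 CPM across pBIC10. The pBIC libraries lay below all others, and pBIC10 overlapped YC. The log2 fold change was -2.09 ± 0.29 (adjusted p = 7.10e-05) in pBIC against YC and 2.22 ± 0.30 (adjusted p = 1.37e-04) in pBIC10 against pBIC, and both calls held under every alternative. In pBIC10 against YC it was 0.13 ± 0.26 (adjusted p = 0.715), not called. Counts of Bmf per count of Bcl2l11 were 0.366 to 0.471 in YC, 0.0179 to 0.0871 in pBIC and 0.191 to 0.320 in pBIC10, with no overlap between groups.

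Between genes, levels can be set side by side only per length of annotated exon. In the Bcl2a1 genes only 20.5 to 31.0% of 50-base windows are unique. If reads that map to several places were dropped, the levels and ranks of these genes below are too low. In YC the mean level per kb was 133 CPM for Mcl1, 56.3 for Bcl2a1d, 55.4 for Bak1, 49.3 for Bcl2a1b and 35.1 for Bcl2a1a. Below these came Bcl2l1 at 10.2, Bcl2l11 at 7.25, Bmf at 4.63, Bcl2 at 4.19 and Bcl2l2 at 1.38 CPM per kb. The ranges over the 4 libraries overlapped among Bcl2a1d, Bak1 and Bcl2a1b, and among Bcl2l11, Bmf and Bcl2. In pBIC Mcl1 was again highest at 146 CPM per kb, followed by Bak1 at 79.7, Bcl2l11 at 20.3, Bcl2 at 19.6, Bcl2a1d at 16.7, Bcl2a1b at 11.2 and Bcl2a1a at 10.2, and Bcl2l1 had fallen to 1.56 CPM per kb. There the range of Bcl2 overlapped those of Bcl2l11 and of all 3 Bcl2a1 genes, whose split is uncertain. In pBIC10 Mcl1 stood at 192 CPM per kb, Bak1 at 58.9, Bcl2l11 at 13.1 and Bcl2 at 11.9, and all 3 Bcl2a1 genes were below 1.

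Other genes of the family were read from lists. Of 6 further BH3-only genes 5 could be tested, of which 1 was higher and 1 lower in pBIC10 than in pBIC, 0 higher and 3 lower in pBIC than in YC, and 2 higher and 1 lower in pBIC10 than in YC. Their medians on the log2 scale were 0.70, -0.99 and -0.41 in that order. Bad, whose protein is switched off by phosphorylation, fell in pBIC against YC, -0.99 ± 0.25 (adjusted p = 0.00478), and in pBIC10 against YC, -1.94 ± 0.26 (adjusted p = 5.90e-05). Between the lymphomas it was -0.95 ± 0.27 (adjusted p = 0.0162), a call lost in 3 of 21 alternatives. Bbc3, which encodes the p53 target PUMA, fell in pBIC against YC, -1.40 ± 0.33 (adjusted p = 0.00311). Pmaip1, which encodes NOXA, a binder of MCL1, rose in pBIC10 against YC, 1.28 ± 0.32 (adjusted p = 0.00589). Bik had 58 counts over the pBIC10 libraries, 1 over pBIC and 17 over YC, a ratio of pBIC10 to pBIC of 59.6 with a counting interval of 10.3 to 2395. Bid was called in no comparison, and Hrk was not testable. Of 4 further family relatives, Bcl2a1c included, 3 were tested. Between the lymphomas 0 were higher and 1 lower. In pBIC 1 was higher and 2 lower than in YC, and in pBIC10 0 were higher and 2 lower than in YC. Bcl2l13 rose in pBIC against YC, 0.55 ± 0.17 (adjusted p = 0.0133), and Bcl2l12 fell in pBIC10 against YC, -1.02 ± 0.24 (adjusted p = 0.00331). Among the 4 BNIP genes, mitochondrial proteins tied to mitophagy or to binding BCL2, Bnip3l rose in both lymphomas against YC, 0.58 ± 0.16 (adjusted p = 0.00805) in pBIC and 0.81 ± 0.16 (adjusted p = 9.70e-04) in pBIC10. In that list 1 gene was higher and 0 lower in pBIC10 than in pBIC, 1 higher and 3 lower in pBIC than in YC, and 1 higher and 0 lower in pBIC10 than in YC, with medians of 0.51, -0.61 and -0.10. Bnip3 and Bnip1 fell in pBIC against YC, -1.72 ± 0.48 (adjusted p = 0.00871) and -0.72 ± 0.18 (adjusted p = 0.00480).

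Downstream of the pore, of 9 genes of the apoptosome and its inhibitors 1 was higher and 3 lower in pBIC10 against pBIC, 1 was higher and 0 lower in pBIC against YC, and 1 was higher and 2 lower in pBIC10 against YC. Cycs, which encodes cytochrome c, rose in pBIC against YC, 1.25 ± 0.25 (adjusted p = 0.00110). Diablo, which encodes an antagonist of the inhibitors of apoptosis, rose in pBIC10 against YC, 0.66 ± 0.14 (adjusted p = 0.00185). Apaf1, Casp9, Xiap and Birc2 were called in no comparison. The list's median log2 fold change was 0.32, 0.07 and -0.04 between the lymphomas and for pBIC and pBIC10 against YC.

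Of 8 mitochondrial partners 6 were higher and none lower in each lymphoma against YC, beside 26.4% and 24.8% of all genes called higher, with medians of 0.80 in pBIC and 0.55 in pBIC10, and -0.30 between the lymphomas. Vdac1 and Vdac2 are channels of the outer membrane, and VDAC2 binds BAK. Vdac1 rose by 1.56 ± 0.18 (adjusted p = 1.63e-05) in pBIC and 1.08 ± 0.17 (adjusted p = 2.25e-04) in pBIC10 on the log2 scale. Vdac2 rose by 0.93 ± 0.18 (adjusted p = 7.02e-04) in pBIC, and in pBIC10 it was 0.48 ± 0.18 (adjusted p = 0.0364), a call lost in 5 of 21 alternatives. Mtch2, the receptor of cleaved BID, rose by 1.22 ± 0.18 (adjusted p = 1.20e-04) in pBIC, and in pBIC10 it was 0.55 ± 0.18 (adjusted p = 0.0205), a call lost in 3 of 21 alternatives. The chaperone partner Bag1 rose by 0.86 ± 0.18 (adjusted p = 0.00127) in pBIC and 1.05 ± 0.18 (adjusted p = 3.17e-04) in pBIC10. Between the lymphomas 1 partner was higher, Bag5 at 0.87 ± 0.22 (adjusted p = 0.00922), and 1 lower, Mtch2 at -0.66 ± 0.19 (adjusted p = 0.0195); these calls were lost in 1 of 21 and 5 of 21 alternatives.

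MCL1, BIM and BAK are also set by protein turnover, which RNA does not show. Of 8 ubiquitin ligases and deubiquitinases named for them 6 were testable, and 4 were higher and none lower in pBIC10 against pBIC, none higher and 2 lower in pBIC against YC, and 3 higher and 1 lower in pBIC10 against YC. Huwe1, a ligase of MCL1, was higher in pBIC10 than in pBIC, 0.95 ± 0.26 (adjusted p = 0.0145), a call lost in 4 of 21 alternatives. Usp9x, which removes ubiquitin from MCL1, rose in pBIC10 against YC, 0.87 ± 0.18 (adjusted p = 0.00143). Fbxw7, whose ligase targets MCL1 and MYC, fell in both lymphomas, -1.20 ± 0.21 (adjusted p = 3.90e-04) in pBIC and -1.23 ± 0.21 (adjusted p = 3.20e-04) in pBIC10 against YC. Trim17 was higher in pBIC10 than in pBIC, 1.91 ± 0.36 (adjusted p = 0.00159), and lower in pBIC than in YC, -1.42 ± 0.35 (adjusted p = 0.00387). The list's median was 0.73, -0.19 and 0.57 between the lymphomas and for pBIC and pBIC10 against YC.

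Among 18 transcription factors known to act on family genes, 1 was higher and 13 lower in pBIC against YC, 1 was higher and 12 lower in pBIC10 against YC, and 4 were higher and 4 lower in pBIC10 against pBIC. Of all genes 26.4% were called higher and 27.7% lower in the first, 24.8% and 26.9% in the second, and 15.6% and 15.1% in the third, and these shares hold for the other lists too. The medians were -0.95, -1.12 and -0.20. Of the NF-κB subunits, Rel stood at 397 ± 163 CPM in YC (SD, n = 4), 82.5 ± 32.9 CPM in pBIC and 112 ± 20.4 CPM in pBIC10 (SD, n = 3). Rel fell against YC, -2.27 ± 0.36 (adjusted p = 3.06e-04) in pBIC and -1.83 ± 0.35 (adjusted p = 0.00111) in pBIC10, and was not called between the lymphomas, 0.44 ± 0.36 (adjusted p = 0.387). Nfkb2 fell at each step, -0.94 ± 0.16 (adjusted p = 2.95e-04) in pBIC against YC and -0.73 ± 0.16 (adjusted p = 0.00495) in pBIC10 against pBIC. Nfkb1 was called in no comparison. Stat3 was lower in pBIC10 than in pBIC, -1.26 ± 0.19 (adjusted p = 3.44e-04), and than in YC, -1.29 ± 0.18 (adjusted p = 9.24e-05).

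Foxo1, of the FOXO factors that act on Bcl2l11, Bbc3 and Bmf, stood at 282 ± 29.0 CPM in YC (SD, n = 4), 33.6 ± 6.55 CPM in pBIC and 100.1 ± 4.41 CPM in pBIC10 (SD, n = 3). It fell against YC in both lymphomas, -3.07 ± 0.18 (adjusted p = 1.69e-07) in pBIC and -1.5 ± 0.17 (adjusted p = 1.54e-05) in pBIC10, and was higher in pBIC10 than in pBIC, 1.57 ± 0.18 (adjusted p = 3.51e-05). E2f1 fell in pBIC against YC, -1.34 ± 0.19 (adjusted p = 8.87e-05), and was higher in pBIC10 than in pBIC, 1.14 ± 0.20 (adjusted p = 8.75e-04). Myc was the factor called higher in both lymphomas, 1.26 ± 0.30 (adjusted p = 0.00394) in pBIC and 2.72 ± 0.31 (adjusted p = 2.53e-05) in pBIC10 against YC. Trp53 fell in both, -2.60 ± 0.32 (adjusted p = 3.94e-05) and -2.10 ± 0.31 (adjusted p = 1.48e-04). Of 12 p53 targets outside the family 10 were testable, and 2 were higher and 4 lower in pBIC against YC, 2 higher and 3 lower in pBIC10 against YC, and 3 higher and 4 lower in pBIC10 against pBIC. Their medians were -0.54, -0.15 and -0.16 in that order. Fas, a death receptor, fell at each step, -1.03 ± 0.25 (adjusted p = 0.00379) in pBIC against YC and -2.62 ± 0.28 (adjusted p = 2.52e-05) in pBIC10 against pBIC. Trp53inp1 fell in pBIC against YC, -2.91 ± 0.34 (adjusted p = 3.13e-05), and was higher in pBIC10 than in pBIC, 2.99 ± 0.35 (adjusted p = 7.13e-05). Of the 105 calls in these lists over the 3 comparisons, 77 held under every alternative fit that gave them a value, at an adjusted p under 0.05. The thresholds of 0.01 and 2-fold were applied to the numbers of genes and members called, not to these calls.

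**Figure D5:**
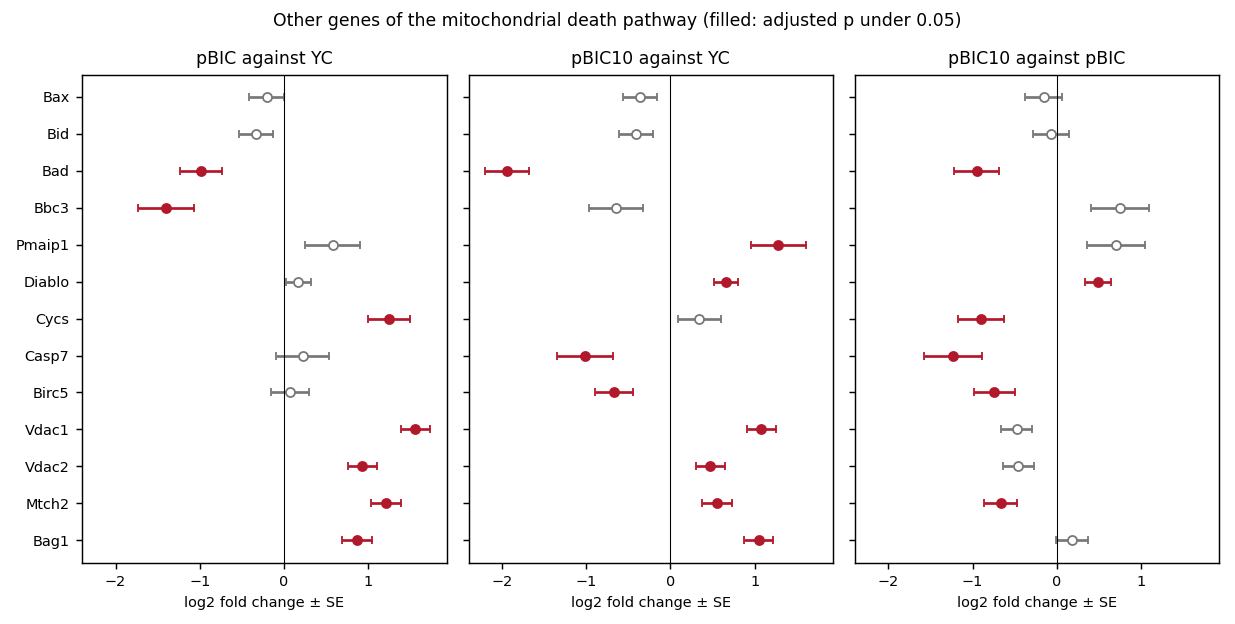
Log2 fold change (horizontal axes) of other genes of the pathway in the 3 comparisons, with bars of 1 SE and filled points where the adjusted p is under 0.05. Vdac1 and Bag1 lie to the right in both comparisons with YC, and Bad lies to the left in all 3 comparisons.

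Promoter letters were read for 3 motifs, on both strands, in the RefSeq windows of GRCm38.p6 from 250 bases before to 50 bases after each start. All 10 members had a window, 15 in all, and 1 of Bcl2a1c was added. The κB-type motif (GGG, any 5 bases, CC) occurred in 11 of the 16, beside 51% of all 32544 windows. Some of the 11 windows belong to the same gene, Bmf or Bcl2l11. Among the Bcl2a1 genes, the windows of Bcl2a1b and Bcl2a1c held a match, and those of Bcl2a1a and Bcl2a1d held none. The match of Bcl2a1b begins at its annotated start, which lies further downstream in the aligned sequence than those of Bcl2a1a and Bcl2a1d. The aligned bases of these copies run past the end of their windows, so the search could not show whether they differ in this match. The letters TTCNNNGAA, a form bound by STAT proteins, occurred in 0 of the 16, beside 8.33% of all windows. The FOXO letters GTAAACA occurred in 1, that of Bcl2l11, whose match begins 227 bases before the start, beside 3.66% of all windows. Matches are descriptions of these windows only.

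The genes whose levels followed the Bcl2a1 genes most closely over the 10 libraries were found among 9939 genes with a mean of at least 5 CPM. Immunoglobulin and T cell receptor genes and genes with Gm, LOC or Rik names were left out of this search. Bcl2a1d (Pearson's r = 0.996) and Clec12a (0.994) came first for Bcl2a1a, Bcl2a1a (0.996) and Fnbp1 (0.992) for Bcl2a1d, and H2-Oa (0.993) and Btbd2 (0.992) for Bcl2a1b. The 10 points share the 3 group levels, and Bcl2a1a and Bcl2a1d share sequence, so these values describe the order of the groups.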

How the data were processed

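Poly(A) RNA of B cells sorted from spleen by B220 and the reporter, with dead cells left out by 7AAD, was read as single-end 50-base reads, per the labels' protocols. What the authors deposited are raw counts of reads for each gene in 10 libraries, and the submitters' processing notes name FastQC, featureCounts and the build GRCm39. Not given in the sources used here: the aligner, annotation release, strand setting and treatment of reads with several matches. All columns of the table have a sample, and 0 were unused.

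Genes were kept by filterByExpr (17718 of 46316), scaled by TMM and fitted with edgeR 4.0.16 in R 4.3.3 by the quasi-likelihood test (robust, 2-sided), with all 10 libraries and 1 coefficient per group. Genes were called at a Benjamini-Hochberg adjusted p under 0.05 over all genes tested, and every adjusted p is from this fit unless another setting is named. The SE is the size of the log2 fold change divided by the square root of F. CPM are scaled by TMM. Exon lengths, 50-base windows and coding sequences come from GENCODE M21, and promoters from RefSeq, both of GRCm38, an earlier build than that of the counts, so no position of a counted gene is given in GRCm39. Intervals are exact, at 95%, and cover counting error only.

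The members were given by name, and the members and the lists of related genes and markers were chosen with earlier results of these data known. From the lists, genes called in at least 1 comparison could be named, at most 4 in each direction per comparison by smallest adjusted p, and the text gives a part of them. Rel and the uncalled list genes were named after their values were seen. One gene of the lists is not reported here and is left out of their counts. Alternatives were DESeq2 size factors and total counts as scaling, DESeq2 1.42.0, limma-voom (limma 3.58.1), other filters and thresholds, sex added to the model, libraries of females only, a table without immunoglobulin and T cell receptor genes, the Bcl2a1 genes summed, only the 2 groups compared, and each library left out in turn. The plots were made in Python 3.11.15 with matplotlib 3.10.9.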

Additional observations from a re-analysis of the deposited data

How the results depend on the processing

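No paired analysis was possible because replicate numbers follow the order of the accessions and tie no library of one group to a library of another. Between the lymphomas, 5440 genes were called, 3145 at an adjusted p under 0.01 and 3511 at a change of at least 2-fold, and 3884 to 6052 when 1 library was left out. In pBIC against YC, 9585 genes were called, 6300 at a change of at least 2-fold, and 8331 to 9949 when 1 library was left out. In pBIC10 against YC, 9158 genes were called, and 7969 to 10128 when 1 library was left out. With 1 library left out, 5 to 6, 7 to 8 and 6 to 8 members were called in the 3 comparisons in that order. Directions turned for 3 member differences not called in the fit of all libraries. With 1 library left out, the log2 fold change of Bcl2l11 between the lymphomas ran from -0.915 to 0.0232, the latter without pBIC replicate 3. In pBIC10 against YC that of Bmf ran from -0.0512 to 0.298, below 0 without pBIC10 replicate 2, and that of Bak1 from -0.0139 to 0.217, below 0 without YC replicate 2. Calls of Bcl2l1, Bcl2l2, Bmf and the Bcl2a1 genes held under every alternative that gave them a value. Where the Bcl2a1 genes were summed, they have no value of their own. The cause of these changes was not tested. Depth limits the Bcl2a1 genes in pBIC10, where each had 2 to 17 counts a library.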
